A study of Acipenser baerii with 14 samples.

Results

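Neuromasts (NMs), the mechanosensory organs of the lateral line, were compared with general epithelium (EP) of untreated Siberian sturgeon (*Acipenser baerii*) larvae at 10 days post hatching. The comparison rests on 4 of the 14 libraries of the series, 2 of NM and 2 of EP, and on all 23448 genes of an assembled transcriptome. The other libraries came from untreated ampullary organs (AOs), the electrosensory organs of the same system, and from AOs and NMs taken 12 h and 24 h after neomycin (hpt). Untreated AO serves below as a second reference for NM. The labels name no transgene or mutation in any group. NMs were cut from the ventral side of the head and EP from the ventral side of the trunk, so organ and body region cannot be told apart. By the published methods, untreated NM, AO and EP were cut from the same group of larvae. Tissue of several larvae was pooled for each organ and condition, and each pool was divided before RNA extraction. Replicates are therefore technical, and the p-values measure only the spread between parts of the same pool. That spread was estimated over the pools of all 14 libraries, those after neomycin included.

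A neuromast is a small epithelial organ in the skin. Its hair cells carry a bundle of stereocilia and a kinocilium, and pass bundle deflection on to sensory nerve endings through ribbon synapses. Supporting cells surround them and make the gelatinous cupula into which the bundles project. Nerve fibres of the lateral line, wrapped by glia, run below. General epithelium is skin without such organs, built of keratin-rich epidermal cells with mucous cells and ionocytes. Both samples were dissected by hand, and tissue below the skin could come with either.

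The NM libraries held 7975001 and 10067958 expected counts, the EP libraries 8474525 and 8987403, and the AO libraries 9881687 and 9396423. A count was detected for 21999 and 22368 genes in NM and for 22420 and 22592 in EP. Expression is given as TMM-normalized CPM, which scales counts to a common library size but not to gene length, so levels are compared between samples and not between genes. Gene names are those of the best protein match in other species. Several assembled genes, called copies here, may carry 1 name and may have shared reads. Of 21978 genes with enough counts, 892 were higher in NM than in EP (4.06%) and 2019 were lower (9.19%), which is 13.2% in either direction. A gene was called when edgeR's quasi-likelihood F-test gave a Benjamini-Hochberg FDR below 0.01 together with a log2 fold change past 1 in size. Only called genes are described as higher or lower. Where the NM and EP libraries of such genes are said to lie apart, this describes their values. It is no further support, because the genes were chosen by their calls or values. A log2 fold change above 3 was found for 173 of the higher genes and one below -3 for 604 of the lower ones. The median log2 fold change of all tested genes was -0.0010. An exact permutation test of 2 libraries against 2 has 0.333 as its smallest two-sided p, and the FDR therefore depends on a spread estimated across genes. Genes were sorted into 37 lists by known role, and the percentages above are what a list's own share of calls is read against. Markers of other tissues differed between the samples. Muscle genes summed to 771 and 671 CPM in NM, against 62046 and 61185 CPM in EP, although EP was labelled as epithelium, and liver genes summed to 1513 and 1481 CPM in NM, against 685 and 645 CPM in EP. When library sizes and scaling were computed without the marker genes, 869 genes were higher and 2060 were lower.

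Regulators of placodes and hair cells were the first group examined. Of 45 tested members, 12 were higher in NM and 0 were lower (1 lay below 0 at an unadjusted p under 0.05, DESeq2 called 0 lower, and a fit with the replicate number as a block called 1), and the median log2 fold change was 0.55. ATOH1, the transcription factor that starts hair cell formation, in its 1 called copy (TRINITY_DN99639_c0_g1) had 29.1 and 28.4 CPM in NM, against 2.80 and 1.63 CPM in EP. The log2 fold change was 3.72 ± 0.24 (SE, FDR = 1.3e-06, edgeR). Each NM library was thus far above each EP library, and EP was low without being at 0. In bulk tissue, fewer cells of a type and less RNA per cell cannot be told apart.

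POU4F3, which keeps hair cells alive in mammals, had 9.36 and 8.21 CPM in NM, against 0.985 and 1.31 CPM in EP, a log2 fold change of 2.91 ± 0.21 (SE). GFI1, a zinc finger repressor needed by mouse hair cells, had 7.90 and 7.25 CPM in NM, against 1.30 and 1.36 CPM in EP (2.53 ± 0.23). For both genes the 2 groups did not overlap, which follows from choosing them among genes higher in NM. The spread within a group was small. LHX3, a LIM homeobox factor, was near the limit of detection in EP, with 3.87 and 3.14 CPM in NM, against 0.217 and 0.141 CPM in EP. Its NM to EP ratio was 17.2, with a counting interval of 5.60 to 86.0. The 5 genes ATOH1, POU4F3, GFI1, LHX3 and EYA2 were named after their values were seen.

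EYA factors and SIX1B, which mark the placodes from which lateral line organs arise, were also higher in NM. EYA2 had 37.5 and 40.2 CPM in NM, against 8.31 and 7.10 CPM in EP. EYA1 (TRINITY_DN116229_c3_g4) had 34.6 and 35.3 CPM in NM, against 12.4 and 12.0 CPM in EP. The 2 called copies of SIX1B had log2 fold changes of 1.22 and 1.45. SOX3 had 96.0 and 84.9 CPM in NM, against 22.4 and 19.8 CPM in EP (2.10 ± 0.14, SE). SOX2, a factor of supporting cells and progenitors, had 134 and 133 CPM in NM, against 81.3 and 88.2 CPM in EP, and at a log2 fold change of 0.65 it did not pass the threshold. EYA4 had 0.51 and was not called either.

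**Figure D1:**
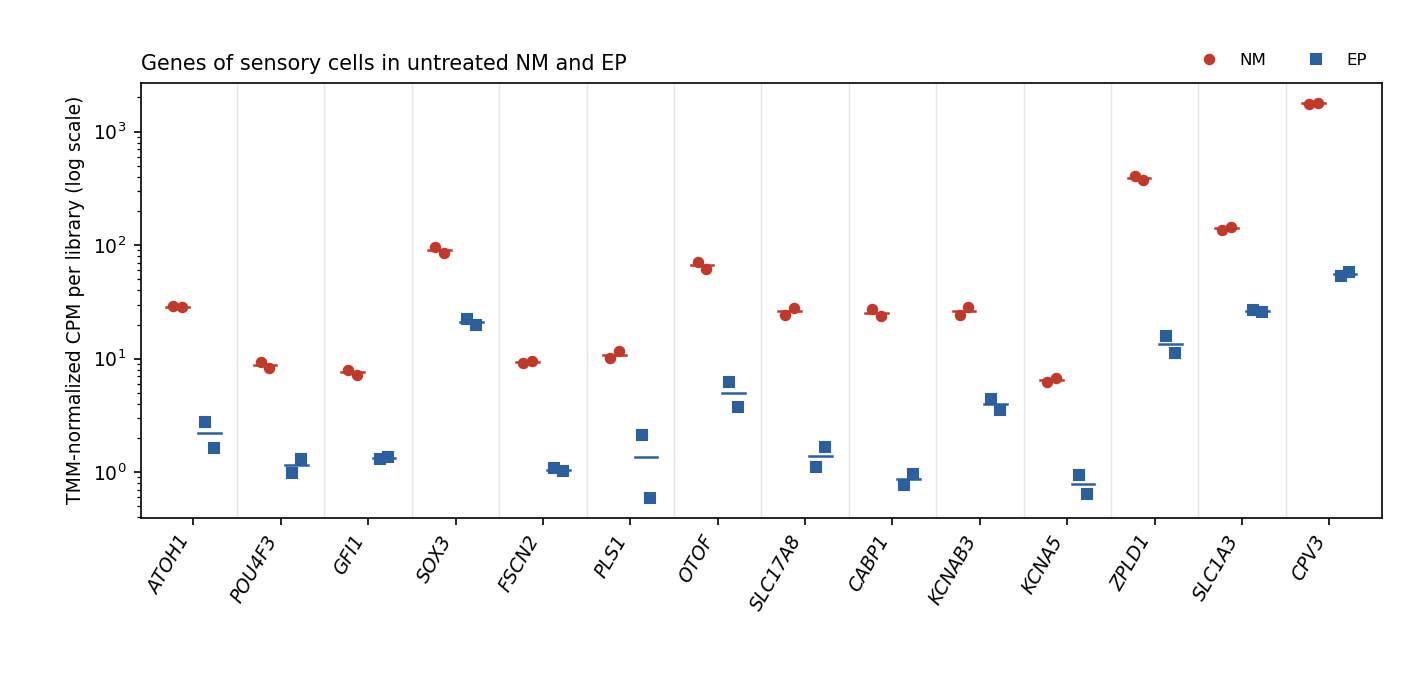
TMM-normalized CPM (log axis) of 14 regulator, hair bundle, synapse, channel, matrix and supporting cell genes in each library, with NM as red circles on the left and EP as blue squares on the right. Points are single libraries and the horizontal line is the mean of 2. In each gene both NM libraries lie above both EP libraries, as for ATOH1 with 29.1 and 28.4 CPM in NM, against 2.80 and 1.63 CPM in EP. The genes shown were chosen among those higher in NM, so this separation follows from the choice. Lower and uncalled members of the same lists are not shown.

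Genes of the hair bundle, the mechanical antenna of the hair cell, went in both directions. Of 69 tested members, 15 were higher and 6 were lower in NM (median 0.42). The share of lower members was near that of all tested genes (9.19%), and only the share of higher members was above it (4.06%). Without either NM library, 3 rather than 6 were lower, and a fit on only the 4 libraries called 8 higher. FSCN2, an actin bundling protein of stereocilia, had 9.09 and 9.47 CPM in NM, against 1.08 and 1.03 CPM in EP (log2 fold change 3.08 ± 0.14, SE). GRXCR2, a protein of the stereocilia base, had 7.67 and 7.94 CPM in NM, against 0.553 and 0.422 CPM in EP (3.997 ± 0.348). The 2 groups were separate for both genes, with NM replicates almost equal.

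PLS1, another actin bundling protein, was the more variable in EP, with 10.1 and 11.6 CPM in NM, against 2.11 and 0.596 CPM in EP. TMC2A, a pore subunit of the mechanotransduction channel, had 6.23 and 5.01 CPM in NM, against 1.66 and 1.23 CPM in EP (1.95 ± 0.24, SE). TOMT, which zebrafish hair cells need to bring TMC proteins to the bundle, had 6.12 and 7.27 CPM in NM, against 0.901 and 1.46 CPM in EP. These transduction genes were above EP in each NM library, and TMC2A lost its call in the fit on only the 4 libraries (FDR = 0.011, edgeR). GRXCR2, TMC2A and TOMT were named after their values were seen.

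Among the lower members was XIRP2, an actin-binding protein of both stereocilia and striated muscle. Its copy TRINITY_DN108676_c1_g1 had 6.56 and 4.998 CPM in NM, against 39.2 and 37.3 CPM in EP (-2.73 ± 0.12, SE). The summed level of the muscle list moved the same way, with 771 and 671 CPM in NM, against 62046 and 61185 CPM in EP, and its part in this result was not tested. MYO6, a myosin of hair cells and many epithelia, had 90.1 and 101 CPM in NM, against 63.6 and 72.1 CPM in EP and was not called.

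The ribbon synapse releases glutamate from hair cells without pause. Of 76 tested members of its list, 16 were higher and 4 were lower in NM (median 0.09). The share of lower members was under that of all tested genes (9.19%), and that of higher members above it (4.06%). The most abundant copy of OTOF (TRINITY_DN119677_c4_g1), the calcium sensor of vesicle release, had 71.1 and 61.9 CPM in NM, against 6.29 and 3.78 CPM in EP (log2 fold change 3.74 ± 0.19, SE). A further copy (TRINITY_DN117276_c1_g1) had 38.4 and 35.1 CPM in NM, against 2.82 and 2.47 CPM in EP (3.79 ± 0.14). The copies may share reads, and both showed NM far above EP in each library.

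SLC17A8, the transporter that loads glutamate into hair cell vesicles, had 24.5 and 28.1 CPM in NM, against 1.12 and 1.66 CPM in EP (4.20 ± 0.31, SE). CABP1, which tunes the inactivation of calcium channels, had 27.1 and 23.8 CPM in NM, against 0.768 and 0.960 CPM in EP (4.94 ± 0.34). In both genes the NM libraries were far above the EP libraries. One copy of CTBP2, the gene that encodes the ribbon protein RIBEYE, had 7.79 and 9.56 CPM in NM, against 0.312 and 0.270 CPM in EP (TRINITY_DN106187_c1_g1, 4.94 ± 0.27, named after its values were seen). The more abundant CTBP2 copies had log2 fold changes of 0.30 and 0.32 and were not called.

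Ion channels of hair cells had the highest share of higher members among the sensory lists, with 10 of 23 higher and 1 lower in NM (0 lower without NM replicate 1, EP replicate 1 or EP replicate 2). The median log2 fold change was 1.32, or 0.52 when the member without a count in one group was set at its lower bound. The fit on only the 4 libraries called 5 higher. KCNAB3, a cytoplasmic subunit of voltage-gated potassium channels, had 24.4 and 28.7 CPM in NM, against 4.41 and 3.52 CPM in EP (TRINITY_DN113107_c0_g3, 2.75 ± 0.18, SE). KCNA5, a pore subunit of such channels, had 6.24 and 6.74 CPM in NM, against 0.937 and 0.643 CPM in EP (2.97 ± 0.26). In both genes each NM library exceeded each EP library several-fold. CACNA1D encodes the calcium channel that triggers release at the ribbon. Its most abundant copy (TRINITY_DN117567_c2_g1) had 6.36 and 6.94 CPM in NM, against 2.70 and 2.61 CPM in EP (1.32 ± 0.14).

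Of 4 calcium buffer genes matched by gene name and tested, 0 were higher and 1 was lower in NM. The parvalbumin CPV3, given below, has no gene name and is therefore missing from this count, and it was higher in NM. At an unadjusted p under 0.05, 1 lay above 0, DESeq2 called 0 higher, and without NM replicate 1 the count of higher members was 1. PVALB, a calcium buffer of fast muscle as well as of sensory cells, had 6.999 and 4.73 CPM in NM, against 1742 and 1035 CPM in EP (-7.91 ± 0.53, SE). The difference runs beside that of the muscle list given above, whose part in it was not tested. CALB2 had 204 and 207 CPM in NM, against 275 and 292 CPM in EP (-0.46), and CALB1 had a log2 fold change of 0.05. Neither was called.

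The matrix that covers sensory epithelia was divided. Of 15 tested genes of gels and otoliths, 5 were higher and 4 were lower in NM, and 13 members had too few counts to be tested. ZPLD1, a zona pellucida domain protein of the cupula in the inner ear, had 405 and 376 CPM in NM, against 15.8 and 11.3 CPM in EP (4.85 ± 0.17, SE, FDR = 1.7e-08, edgeR). OTOL1, a collagen-like otolith protein, had 8.31 and 6.68 CPM in NM, against 0.120 and 0.234 CPM in EP, a ratio of 36.3 with a counting interval of 12.1 to 178. OTOL1 had 3 counts in EP, and both genes were present in each NM library. OTOA, otoancorin, went the other way in its most abundant copies. TRINITY_DN116058_c1_g1 had 139 and 130 CPM in NM, against 439 and 401 CPM in EP (-1.64 ± 0.09), and TRINITY_DN116058_c2_g1 had a log2 fold change of -1.70. A weaker copy (TRINITY_DN117123_c2_g1, named after its values were seen) had 5.43 CPM in each NM library, against 1.02 and 0.948 CPM in EP (2.51 ± 0.17), so copies of 1 name differed in direction.

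Supporting cells were represented by 23 tested genes, of which 5 were higher and 1 was lower in NM (median 0.45). The lower one lost its call without any of the 4 libraries. SLC1A3, a glial and supporting cell transporter that clears glutamate, was the clearest, with 135 and 145 CPM in NM, against 26.7 and 26.0 CPM in EP (TRINITY_DN108125_c1_g2, 2.41 ± 0.07, SE). Its copy TRINITY_DN102102_c0_g4 had a log2 fold change of 2.30. LFNG, a modifier of Notch receptors in supporting cells, had 29.7 and 32.5 CPM in NM, against 17.1 and 12.1 CPM in EP (1.10), and the log2 fold change was 0.86 without EP replicate 2. GLUL, glutamine synthetase, was not called in its 2 most abundant copies, which had 0.12 and -0.70.

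Motile cilium genes were read because the kinocilium is built on an axoneme. Of 122 tested members, 25 were higher and 5 were lower in NM (median 0.83, or 0.81 with members at their bound). The count of higher members was 16 without EP replicate 1, 14 without EP replicate 2, 5 in the fit on only the 4 libraries and 14 in DESeq2. RSPH1, a radial spoke protein, had 3.20 and 3.52 CPM in NM, against 0.3599 and 0.340 CPM in EP (3.01 ± 0.21, SE). TEKT2, a tektin of the axoneme, had 3.43 and 3.53 CPM in NM, against 0.252 and 0.246 CPM in EP (3.60 ± 0.33). Both were chosen after their values were seen, and both were weakly expressed in EP. SPAG6 had 11.4 and 7.18 CPM in NM, against 2.87 and 1.14 CPM in EP, and its call was lost without NM replicate 1 (FDR = 0.013) or EP replicate 2 (FDR = 0.020, edgeR). TPPP3, a tubulin polymerization protein, was lower, with 18.6 and 21.2 CPM in NM, against 59.0 and 69.4 CPM in EP (-1.68 ± 0.13).

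Outside the lists, 2 genes without a gene name stood out and were chosen after their values were seen. TRINITY_DN97159_c2_g2, annotated only by a protein name (CPV3, a parvalbumin), had 1748 and 1801 CPM in NM, against 53.5 and 58.2 CPM in EP. The log2 fold change was 4.99 ± 0.08 (SE, FDR = 1.0e-10, edgeR). This parvalbumin was therefore high in NM in both libraries, opposite to PVALB. TRINITY_DN114598_c4_g1, which has no annotation, had 5307 and 5505 CPM in NM, against 426 and 393 CPM in EP (3.72 ± 0.07). Among the called genes, 52 of the higher and 108 of the lower had no gene name.

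Pathways that pattern lateral line organs were read next. Notch signalling chooses between hair cell and supporting cell fates, and of 60 tested members 5 were higher and 1 was lower in NM (median -0.09), with 2 lower without NM replicate 1 or EP replicate 1, or with the replicate block. HEY2, a Notch target and repressor, had 36.5 and 38.8 CPM in NM, against 13.1 and 11.9 CPM in EP (1.59 ± 0.11, SE). ASCL1B, a proneural factor, had 24.2 and 30.4 CPM in NM, against 9.09 and 11.3 CPM in EP (1.42 ± 0.16). Each was more abundant in both NM libraries than in either EP library. NUMB, an adaptor that inhibits Notch, had 1.96 and 2.27 CPM in NM, against 86.2 and 99.4 CPM in EP (TRINITY_DN119806_c5_g1, -5.42 ± 0.15). The muscle list differed in the same direction between these libraries, and its part in the NUMB result was not tested.

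Of 82 tested Wnt pathway genes, 13 were higher and 6 were lower in NM (median 0.02). The share of lower members was near that of all tested genes (9.19%), and that of higher members above it (4.06%). The higher ones included ligands, a secreted inhibitor and a receptor. WNT7A, a ligand, had 81.1 and 90.5 CPM in NM, against 15.9 and 13.6 CPM in EP (2.54 ± 0.17, SE). WNT4, a ligand named after its values were seen, had 25.2 and 30.1 CPM in NM, against 4.62 and 4.24 CPM in EP (2.62 ± 0.13). SFRP5, which binds and blocks Wnt ligands, had 40.6 and 39.5 CPM in NM, against 7.05 and 7.24 CPM in EP (2.48 ± 0.10). All 3 genes had groups that were wide apart. LGR6, an R-spondin receptor, had 33.3 and 22.0 CPM in NM, against 9.91 and 9.23 CPM in EP (TRINITY_DN117071_c2_g2, 1.52 ± 0.25). CTNNB1, beta-catenin itself, was not called in either abundant copy, with 0.46 and 0.42.

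Fgf genes were called more often lower than higher, 8 against 3 of 44 tested (median -0.34), but 4 were lower without NM replicate 1 and 5 without EP replicate 1. Among all tested genes, too, more were lower (9.19%) than higher (4.06%), so this direction is not particular to the Fgf list. FGFBP2, a carrier that releases Fgf ligands from the matrix, had 22.5 and 21.7 CPM in NM, against 4.61 and 4.03 CPM in EP (2.34 ± 0.19, SE). FGF3, a ligand of the lateral line primordium in zebrafish, had 9.15 and 8.40 CPM in NM, against 3.18 and 3.63 CPM in EP. Its call, for a gene named after its values were seen, was lost without any of the 4 libraries. FGF7, a ligand made by connective tissue, was lower, with 2.64 and 3.24 CPM in NM, against 21.3 and 17.1 CPM in EP (-2.67 ± 0.20).

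Hedgehog signals pattern skin appendages and the skeleton. Of 29 tested members, 8 were lower and 0 were higher in NM (median -0.37), while 5 lay above 0 at an unadjusted p under 0.05 and DESeq2 called 0 higher. SHHA, the ligand, had 4.23 and 4.24 CPM in NM, against 39.0 and 34.4 CPM in EP (-3.11 ± 0.13, SE). PTCH1, the receptor and a target of the pathway, had 3.32 and 3.31 CPM in NM, against 18.9 and 20.8 CPM in EP (TRINITY_DN119522_c2_g2, -2.57 ± 0.12). GLI1, a transcription factor and target named after its values were seen, had 1.57 and 1.96 CPM in NM, against 6.32 and 8.76 CPM in EP (-2.08 ± 0.24). These 3 genes were lower in each NM library, while 21 of the 29 tested members were not called and 11 lay above 0. The share of members called lower was above that of all tested genes (9.19%). GLI2 had a log2 fold change of -1.19, and GAS1, a co-receptor, was not called at -0.09.

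**Figure D2:**
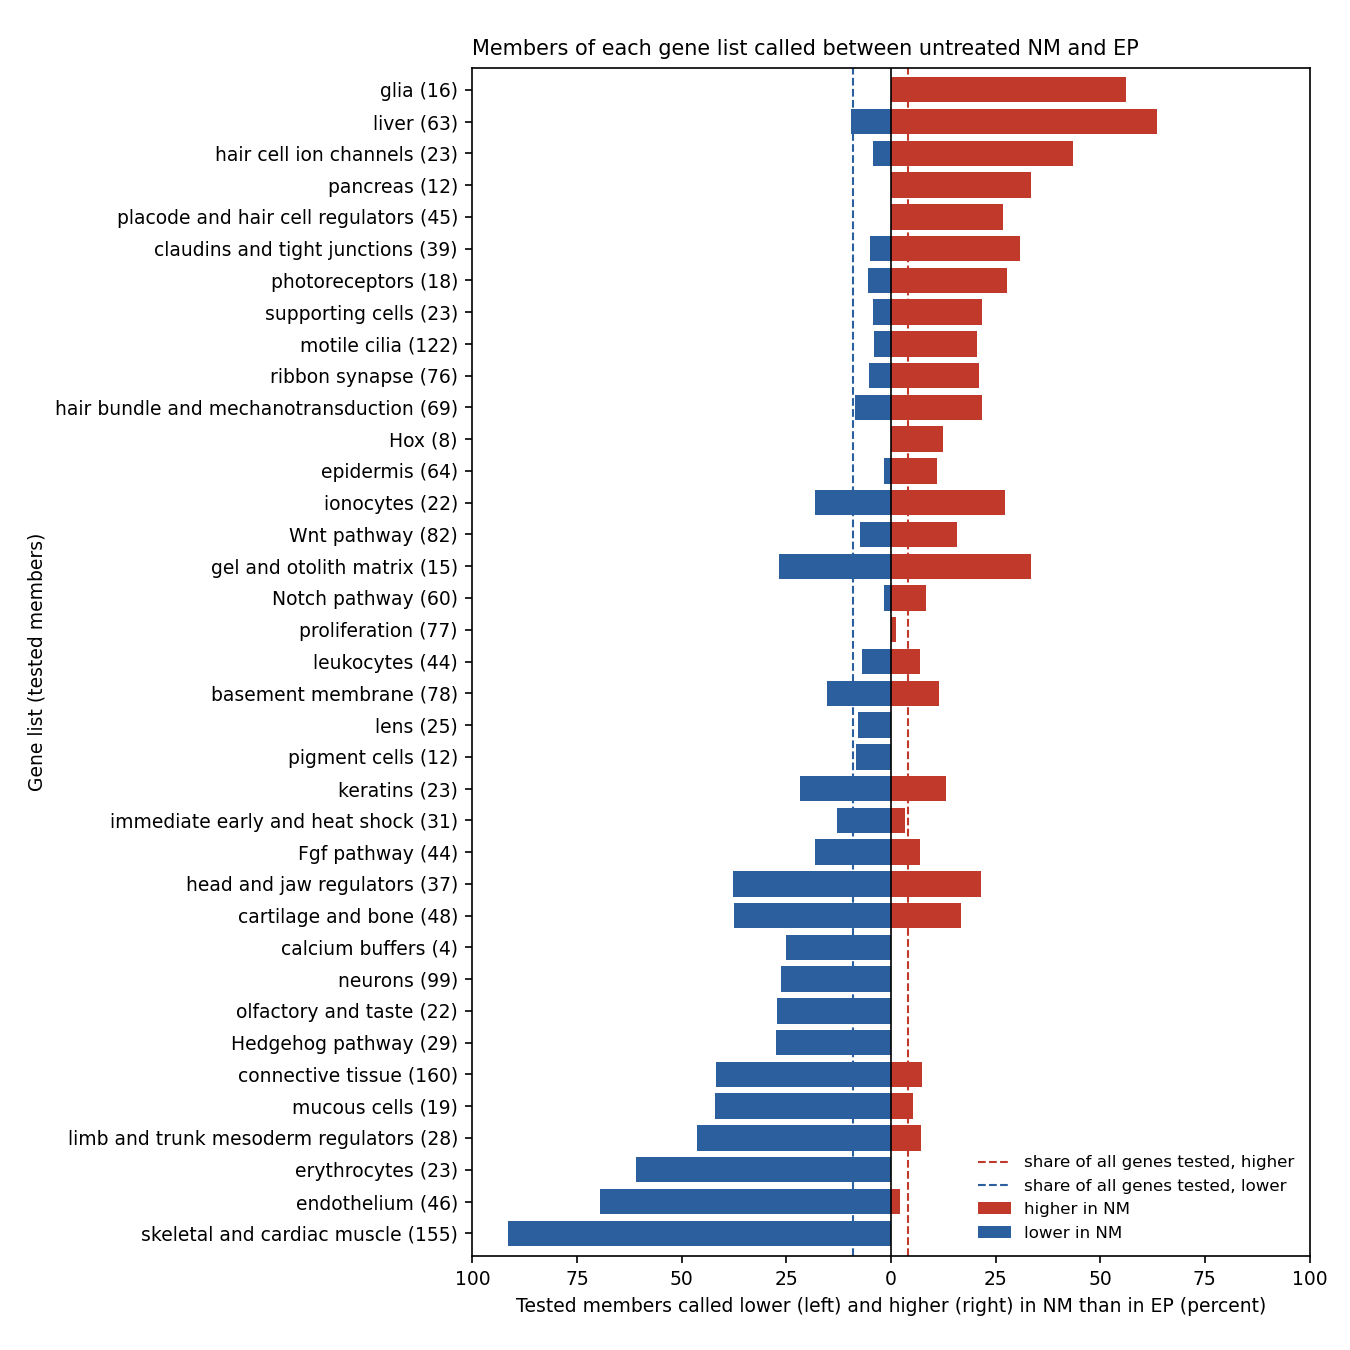
Percent of tested members of each list called lower (left) and higher (right) in NM than in EP. Dashed lines mark the share among all tested genes, 9.19% lower and 4.06% higher. Muscle, endothelium and erythrocytes reach far to the left, and liver, glia and hair cell ion channels far to the right.

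Transcription factors of head and body regions differed strongly. Of 37 tested regulators of the head and jaw, 8 were higher and 14 were lower in NM (median -0.30). EMX1, a homeobox factor of the anterior head and the skin over it, had 40.5 and 38.5 CPM in NM, against 1.27 and 1.37 CPM in EP (TRINITY_DN101106_c3_g3, 4.85 ± 0.14, SE). MSXC, a muscle segment homeobox factor, had 89.8 and 85.8 CPM in NM, against 11.7 and 11.5 CPM in EP (2.93 ± 0.08). OTX1B, a factor of the anterior head, had a log2 fold change of 2.12. For each of these genes both NM libraries were above both EP libraries.

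Factors of the jaw and its mesenchyme were among the lower members. BARX1, which marks the mesenchyme of the jaw and teeth, had 0.995 and 0.982 CPM in NM, against 51.5 and 62.7 CPM in EP (-5.84 ± 0.29, SE). GSC, a factor of jaw and ear cartilage, had 0.816 and 0.717 CPM in NM, against 33.1 and 34.3 CPM in EP (-5.37 ± 0.16). LHX6, of the oral jaw mesenchyme, had 0.447 and 0.838 CPM in NM, against 20.7 and 20.3 CPM in EP (-4.90 ± 0.20). The 3 genes were nearly absent from NM and clearly expressed in EP. PITX1, of oral and hindlimb tissue, had 39.2 and 49.0 CPM in NM, against 134 and 159 CPM in EP (TRINITY_DN95460_c0_g1, -1.73 ± 0.16). DLX2A, a factor of the pharyngeal arches, had -1.03 and lost its call without NM replicate 2 or EP replicate 1. EMX1, OTX1B, BARX1, GSC and LHX6 were named after their values were seen.

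Hox genes, which mark trunk levels of the body axis, were scarce in both. Of 29 in the table, 8 had enough counts to be tested, and the list summed to 21.5 and 24.6 CPM in NM, against 27.4 and 20.97 CPM in EP. EP came from the trunk by the published methods. Its libraries held the jaw factors named above at a higher level than NM, but of the 37 tested head and jaw regulators 8 were higher and 14 lower in NM. The summed Hox level did not separate EP from NM. The 1 called member, HOXC10, had 5.41 and 6.30 CPM in NM, against 2.89 and 1.93 CPM in EP, and lost its call without any 1 of the 4 libraries.

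Regulators of limb and trunk mesoderm were lower more often than the background, 13 of 28 tested, with 2 higher and a median of -1.45 (-1.30 with members at their bound). TBX15, a factor of dermis and skeleton, had 6.34 and 6.08 CPM in NM, against 28.5 and 27.0 CPM in EP (-2.17 ± 0.14, SE). MEOX2, of somites and muscle, had 1.48 and 1.33 CPM in NM, against 19.0 and 16.6 CPM in EP (-3.64 ± 0.22). PAX9, of the sclerotome and pharynx, had 2.38 and 1.91 CPM in NM, against 18.1 and 16.4 CPM in EP (-3.03 ± 0.20). The EP libraries were uniform and the NM libraries low for all of them. TCF15, of the paraxial mesoderm, had no count in NM, against 11.3 and 10.2 CPM in EP, at least 58.5-fold lower when NM was set at a floor of 3 counts for the group (named after its values were seen). PAX3, of dermomyotome and neural crest, was an exception, with 17.6 and 22.1 CPM in NM, against 2.01 and 2.11 CPM in EP (3.29 ± 0.29).

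**Figure D3:**
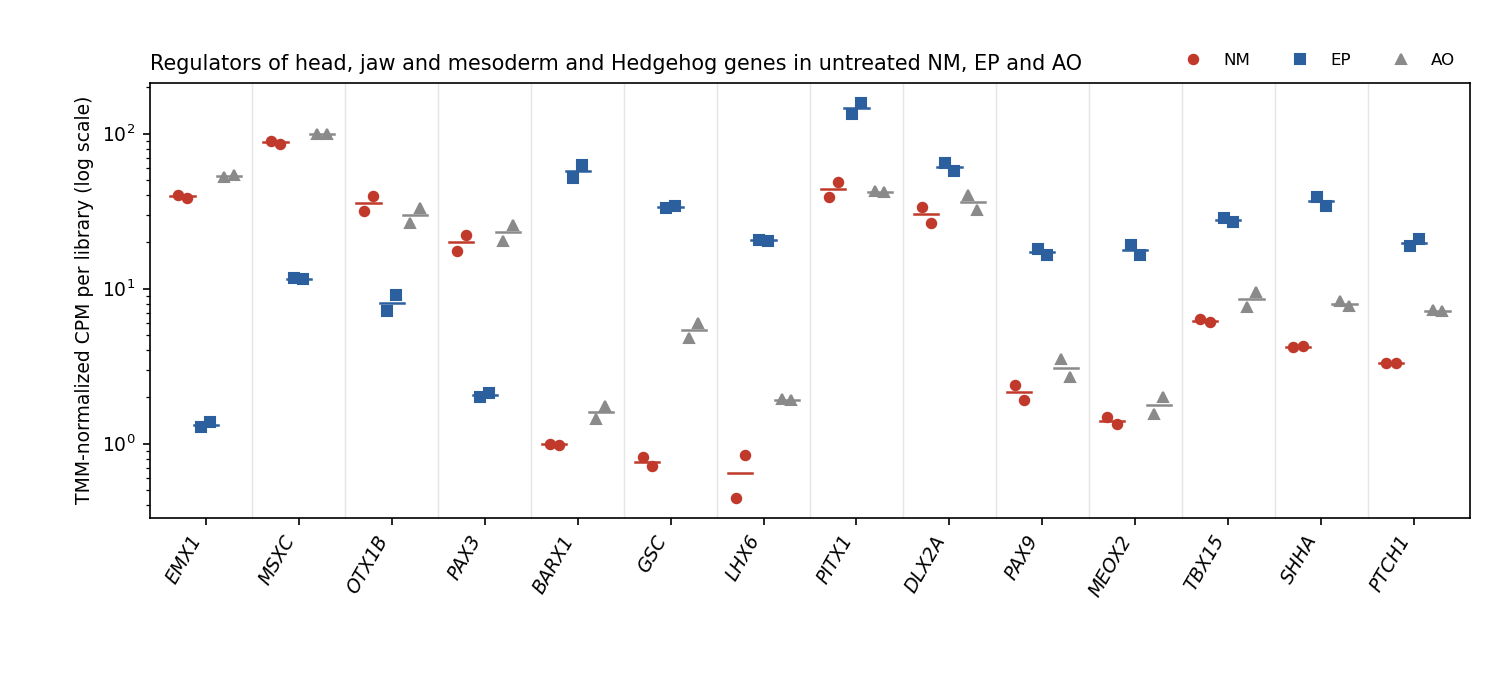
TMM-normalized CPM (log axis) of 14 regional and Hedgehog genes in single libraries of NM, EP and AO, with the mean of 2 as a line. EMX1 and MSXC are high in NM and low in EP, while BARX1, GSC and LHX6 lie below 1 CPM in NM, against 20.3 to 62.7 CPM in EP.

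Epithelial genes were expressed at high levels in both samples. Of 64 tested epidermis genes, 7 were higher and 1 was lower in NM (median 0.21), and the lower one lost its call without NM replicate 1 or EP replicate 2. The list summed to 9055 and 8894 CPM in NM, against 7367 and 7016 CPM in EP. CDH1, the epithelial cadherin, had 589 and 614 CPM in NM, against 283 and 292 CPM in EP (1.07 ± 0.06, SE). ELF3, an epithelial Ets factor, had 471 and 444 CPM in NM, against 146 and 129 CPM in EP (1.74 ± 0.12). TFAP2A, an early factor of surface ectoderm, had 176 and 184 CPM in NM, against 58.6 and 54.7 CPM in EP (1.67 ± 0.07). Each of these was higher in NM in every library. EPCAM, an epithelial adhesion protein, had 0.56 and was not called.

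Keratins were mixed, with 3 higher and 5 lower of 23 tested in NM (median -0.21). KRT8, the keratin of simple epithelia, was very abundant in both, with 11714 and 12182 CPM in NM, against 10912 and 11160 CPM in EP (TRINITY_DN115819_c4_g5, 0.11, not called). KRT19 had 2235 and 1838 CPM in NM, against 425 and 375 CPM in EP (2.35 ± 0.14, SE). KRT15, which the assembler placed in the same cluster of contigs as a copy of KRT19 (TRINITY_DN90409_c4_g2), had 9.64 and 17.1 CPM in NM, against 434 CPM in each EP library (-4.998 ± 0.205, named after its values were seen). The 2 genes thus went in opposite directions, and reads shared between them were not tested. KRT13 (TRINITY_DN99727_c0_g2) and KRT42 were lower, with log2 fold changes of -1.43 and -1.14.

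Tight junction genes seal epithelia, and 12 of 39 tested were higher in NM and 2 were lower (median 0.55), with 1 lower without NM replicate 2, EP replicate 1 or EP replicate 2. CLDN4 had 1408 and 1328 CPM in NM, against 508 and 503 CPM in EP (1.44 ± 0.08, SE). A copy of CLDN3 (TRINITY_DN115821_c2_g3, named after its values were seen) had 28.0 and 27.7 CPM in NM, against 1.56 and 1.36 CPM in EP (4.27 ± 0.16). The separation was wide and the replicates close. OCLN, occludin, had 249 and 280 CPM in NM, against 117 and 134 CPM in EP (TRINITY_DN109842_c2_g1, 1.07), and was just under a log2 fold change of 1 without NM replicate 2 (0.99) or EP replicate 1 (0.98).

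Of 78 tested basement membrane genes, 9 were higher and 12 were lower in NM (median -0.09). FREM2, a protein that holds skin to its basement membrane, had 38.2 and 47.3 CPM in NM, against 9.88 and 11.7 CPM in EP (TRINITY_DN118670_c1_g1, 1.98 ± 0.13, SE). COL17A1, a collagen of hemidesmosomes, had 320 and 322 CPM in NM, against 154 and 151 CPM in EP (TRINITY_DN112409_c1_g2, 1.07 ± 0.06). NID1 and NID2, which link laminin to collagen, had -1.11 and -1.01, and each lost its call without NM replicate 1 or EP replicate 1. NID2 also lost it with the replicate block, at -0.996.

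Mucous cell genes were lower in NM, with 8 of 19 tested lower and 1 higher (median -1.70), or 2 higher without EP replicate 1. AGR2, a disulfide isomerase needed for mucin folding, had 159 and 135 CPM in NM, against 622 and 591 CPM in EP (TRINITY_DN101291_c0_g1, -2.04 ± 0.11, SE). MUC5AC, a secreted gel mucin, had 4.75 and 5.40 CPM in NM, against 86.6 and 81.2 CPM in EP (-4.04 ± 0.10). EP was higher in both libraries for each gene. MUC4, a membrane mucin named after its values were seen, went the other way with 29.7 and 29.6 CPM in NM, against 1.59 and 1.74 CPM in EP (4.17 ± 0.11). Ionocyte genes were split, with 6 higher and 4 lower of 22 tested. The lower ones were RHAG and 2 copies of SLC4A1, which are also on the erythrocyte list, and TRPV6, a calcium channel. SLC26A4, an anion exchanger, had 65.9 and 56.6 CPM in NM, against 17.4 and 14.7 CPM in EP (1.93 ± 0.14), and FOXI1E, a factor of ionocytes, had 1.25.

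Proliferation genes lay slightly above 0, with a median of 0.31 and 61 of 77 tested members above 0. Among all tested genes, 10890 of 21978 lay above 0. Of the 77, 1 was called higher and 0 were called lower. Both are under the shares of all tested genes (4.06% and 9.19%). At an unadjusted p under 0.05, 37 of the 77 lay above 0 and 2 below, a count not made over all tested genes. DESeq2 called 0 of them lower. LIG1, the DNA ligase of replication, had 50.2 and 53.1 CPM in NM, against 22.9 and 25.5 CPM in EP (1.10 ± 0.09, SE). PCNA, the sliding clamp, had 305 and 344 CPM in NM, against 172 and 191 CPM in EP, and at 0.84 was not called. Immediate early and heat shock genes had 1 higher and 4 lower of 31 tested, near the shares of all tested genes (4.06% and 9.19%). FOSB, which responds within minutes to stimulation, had -1.27, and of the 3 copies of FOS the least abundant (TRINITY_DN108039_c0_g1) had -1.39, while the others had 0.69 and 0.63 and were not called. HSPB1, a small heat shock protein abundant in muscle, had 1.44 and 1.68 CPM in NM, against 121 and 134 CPM in EP (-6.36 ± 0.20), beside the difference of the muscle list whose part in it was not tested.

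Skeletal and cardiac muscle genes had the lowest median of the 37 lists. Of 155 tested members, 142 were lower in NM and 0 were higher (1 above 0 at an unadjusted p under 0.05, 0 higher in DESeq2, median -7.05, or -6.26 with 27 members at their bound). MYLPF, a myosin light chain of fast muscle, had 14.4 and 13.02 CPM in NM, against 10079 and 10094 CPM in EP (-9.52 ± 0.11, SE, FDR = 1.6e-11, edgeR). ACTA1, skeletal actin, had 10.7 and 12.7 CPM in NM, against 5161 and 5624 CPM in EP (-8.84 ± 0.14). CKM, muscle creatine kinase, had 10.7 and 14.0 CPM in NM, against 4267 and 4358 CPM in EP (-8.44 ± 0.14). The EP libraries were alike in each gene, and the NM libraries held small but measurable amounts.

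Several of the 12 genes with the largest decrease had no count in NM. NEB, nebulin of the thin filament, had no count in NM, against 70.5 and 63.0 CPM in EP, at least 361-fold lower. TTN, titin, had no count in NM, against 45.1 and 35.9 CPM in EP, at least 219-fold lower. RYR1 and RYR3, ryanodine receptors of the calcium store, were at least 138-fold and at least 129-fold lower, and MYOM2 and HHATL at least 105-fold and at least 119-fold. Each bound sets NM at the floor of 3 counts for the group. ATP2A1, the calcium pump of fast muscle, had 0.515 and 1.07 CPM in NM, against 1575 and 1430 CPM in EP (TRINITY_DN98877_c2_g3, -10.7 ± 0.27, SE). MYH1 had 0 and 0.187 CPM in NM, against 74.0 and 358 CPM in EP, and lost its call without NM replicate 1 (FDR = 0.015) or NM replicate 2 (FDR = 0.017, edgeR).

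**Figure D4:**
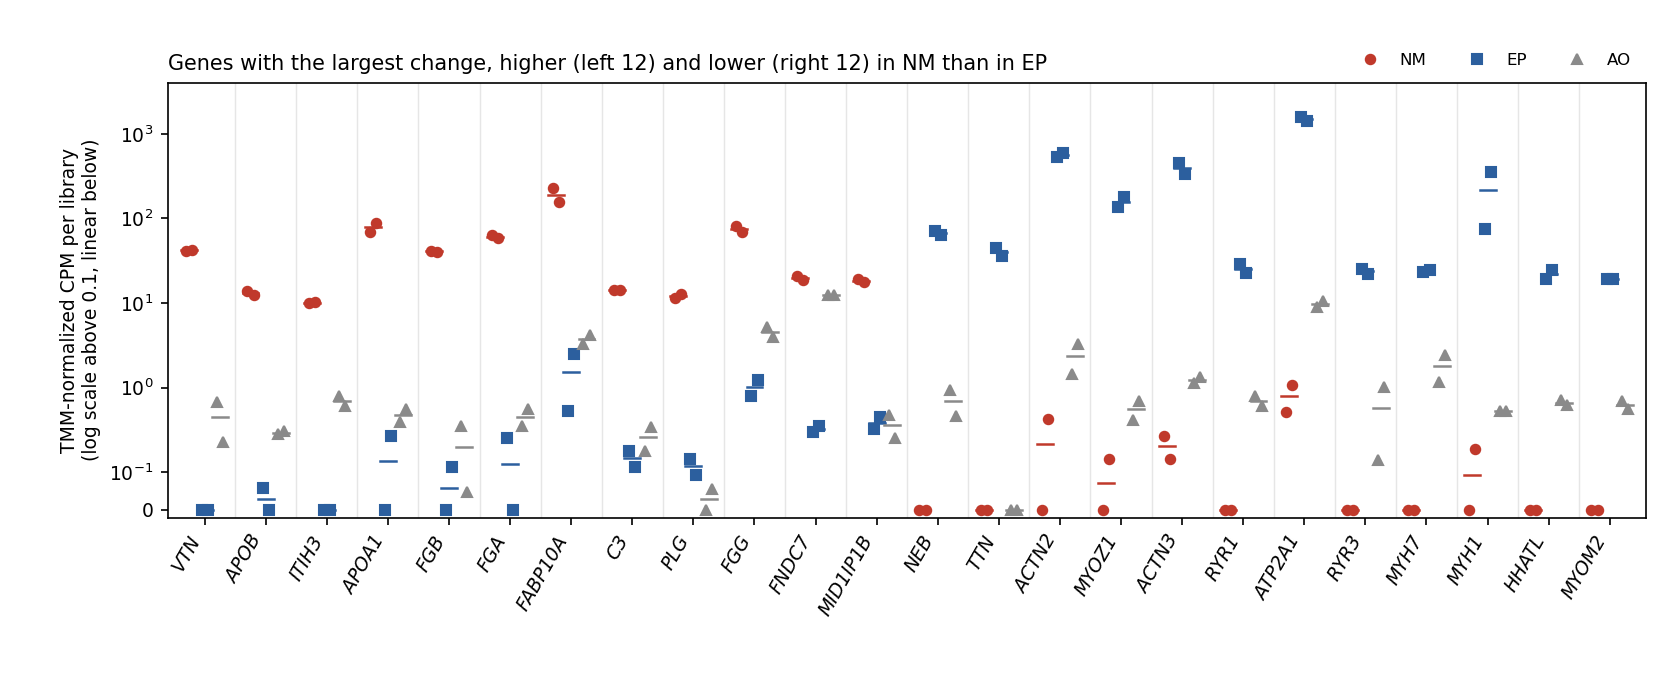
CPM in single libraries of NM, EP and AO for the 12 named genes with the largest increase and the 12 with the largest decrease in NM against EP (logarithmic above 0.1 CPM and linear below). Most of the higher genes are made by liver, with VTN at 41.1 and 42.5 CPM in NM, against 0 in both EP libraries, and the lower ones are almost all muscle genes. Genes were drawn only from those whose NM and EP libraries did not overlap, so this separation follows from the choice.

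Cartilage and bone genes went both ways. Of 48 tested cartilage and bone genes, 18 were lower and 8 were higher in NM (median -0.53). COL10A1, a collagen of mineralizing tissue, had 3.69 and 3.61 CPM in NM, against 1087 and 1083 CPM in EP (-8.22 ± 0.10, SE). COL9A1, a cartilage collagen named after its values were seen, had 3.10 and 3.49 CPM in NM, against 52.3 and 51.8 CPM in EP (-3.97 ± 0.11). Both genes had near-equal replicates in each group. SOX9, a factor of cartilage and of many epithelial progenitors, was higher, with 296 and 394 CPM in NM, against 102 and 126 CPM in EP (TRINITY_DN116487_c0_g1, 1.59 ± 0.22).

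Of 160 tested connective tissue genes, 67 were lower and 12 were higher in NM (median -1.001). COL1A2, a chain of type I collagen, had 355 and 327 CPM in NM, against 1024 and 890 CPM in EP (TRINITY_DN98278_c4_g1, -1.49 ± 0.18, SE). COL6A1, of type VI collagen, had 316 and 307 CPM in NM, against 702 and 682 CPM in EP (-1.15 ± 0.08). POSTN, periostin, a matrix protein of dermis and bone surfaces, was higher with 4024 and 3262 CPM in NM, against 1132 and 936 CPM in EP (1.82 ± 0.19). The list summed to 46242 and 45469 CPM in NM, against 58193 and 57608 CPM in EP.

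Blood and vessel genes were lower in NM. Of 23 tested erythrocyte genes, 14 were lower and 0 were higher (0 above 0 at an unadjusted p under 0.05, 0 higher in DESeq2, median -2.56), and the list summed to 1698 and 1843 CPM in NM, against 12476 and 13333 CPM in EP. HBZ, a globin chain, had 1007 CPM in each NM library, against 8240 and 7865 CPM in EP (-2.999 ± 0.075, SE). ALAS2, the first enzyme of haem synthesis in red cells, had 2.68 and 2.06 CPM in NM, against 34.0 and 36.8 CPM in EP (-3.91 ± 0.13, named after its values were seen). Of 46 endothelial genes, 32 were lower and 1 was higher (median -1.63), with 21 lower without EP replicate 2 and 0 higher without NM replicate 1, NM replicate 2 or EP replicate 1. FLI1, an Ets factor of vessels, had 11.1 and 12.2 CPM in NM, against 46.9 and 42.1 CPM in EP (-1.93 ± 0.11). Leukocyte genes had 3 higher and 3 lower of 44 tested, near the shares of all tested genes (4.06% and 9.19%).

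Genes of the nerve were divided by cell type. Of 16 tested glial genes, 9 were higher and 0 were lower in NM (median 1.12), with 3 below 0 at an unadjusted p under 0.05 and 1 lower in DESeq2 and with the replicate block. MBP, myelin basic protein, had 334 and 326 CPM in NM, against 40.3 and 44.3 CPM in EP (2.96 ± 0.08, SE). SOX10, the factor of Schwann cells and neural crest, had 55.9 and 67.6 CPM in NM, against 14.7 and 19.3 CPM in EP (1.86 ± 0.18, named after its values were seen). Both genes were thus higher in every NM library.

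Of 99 tested neuron genes, 26 were lower and 0 were higher in NM (10 above 0 at an unadjusted p under 0.05, 0 higher in DESeq2, median -1.12, or -1.08 with members at their bound). Without EP replicate 2, 17 were lower and 2 higher, and without NM replicate 2, 1 was higher. TUBB3, a neuronal tubulin, had 14.0 and 17.0 CPM in NM, against 36.9 and 45.3 CPM in EP (-1.40 ± 0.19, SE). STMN4, a microtubule regulator of neurons, had 9.504 and 9.76 CPM in NM, against 34.5 and 39.1 CPM in EP (-1.93 ± 0.14). SYP, a synaptic vesicle protein, had 116 and 120 CPM in NM, against 71.8 CPM in each EP library (0.72) and was not called.

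Liver genes were the opposite of muscle. Of 63 tested, 40 were higher and 6 were lower in NM (median 3.15, or 3.13 with 5 members at their bound), and they summed to 1513 and 1481 CPM in NM, against 685 and 645 CPM in EP. FABP10A, the liver fatty acid-binding protein, had 226 and 155 CPM in NM, against 0.529 and 2.53 CPM in EP (6.92 ± 0.49, SE). APOA1, of high-density lipoprotein, had 69.4 and 87.8 CPM in NM, against 0 and 0.270 CPM in EP, a ratio of 588 with a counting interval of 162 to 4859. VTN, vitronectin of plasma, had 41.1 and 42.5 CPM in NM, against no count in EP, at least 206-fold higher with EP at the floor of 3 counts. Both NM libraries were far above both EP libraries in each gene. That separation was a condition for naming genes by largest change, so it follows from the choice. Of the 3 genes, FABP10A varied most between the NM replicates.

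The 3 fibrinogen chains were all higher. FGG had 80.5 and 68.6 CPM in NM, against 0.805 and 1.24 CPM in EP (6.08 ± 0.19, SE). FGA had a ratio of 447 (counting interval 123.5 to 3699) and FGB one of 605 (108 to 23914). BHMT, betaine-homocysteine methyltransferase, was an exception among liver genes, with 19.7 and 21.9 CPM in NM, against 212 and 241 CPM in EP (-3.44 ± 0.13). MAT1A, which makes S-adenosylmethionine, had 24.5 and 12.3 CPM in NM, against 159 and 89.8 CPM in EP (TRINITY_DN92292_c1_g3), and lost its call without NM replicate 1 (FDR = 0.015), NM replicate 2 (FDR = 0.050) or EP replicate 1 (FDR = 0.032, edgeR).

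Of 12 tested pancreas genes, 4 were higher and 0 were lower in NM (2 below 0 at an unadjusted p under 0.05, 0 lower in DESeq2), and 2 were higher without NM replicate 2, EP replicate 1 or EP replicate 2. CTRB1, a digestive protease precursor, had 7.20 and 4.91 CPM in NM, against no count in EP, at least 29.0-fold higher. Of 18 tested photoreceptor genes, 5 were higher and 1 was lower, with 3 higher without EP replicate 2 and 0 lower without NM replicate 1 or EP replicate 2. OPN1LW1, a cone opsin, had 8.42 and 10.8 CPM in NM, against 0.0964 and 0.176 CPM in EP, a ratio of 72.1 with a counting interval of 19.6 to 600.2. Lens genes had 2 lower and 0 higher of 25, with 1 lower without NM replicate 1, EP replicate 1 or EP replicate 2, and 1 higher without NM replicate 2. Olfactory and taste genes had 6 lower and 0 higher of 22, with 3 lower without NM replicate 1 or NM replicate 2 and 2 without EP replicate 2. Pigment cell genes had 1 lower and 0 higher of 12, and the 1 lost its call without NM replicate 1, NM replicate 2 or EP replicate 1, while the replicate block called 2 lower. At an unadjusted p under 0.05, 2 lens, 2 olfactory and taste and 1 pigment cell gene lay above 0, and DESeq2 called 1, 0 and 0 of them higher. The shares of lower lens and pigment cell genes were near that of all tested genes (9.19%).

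**Figure D5:**
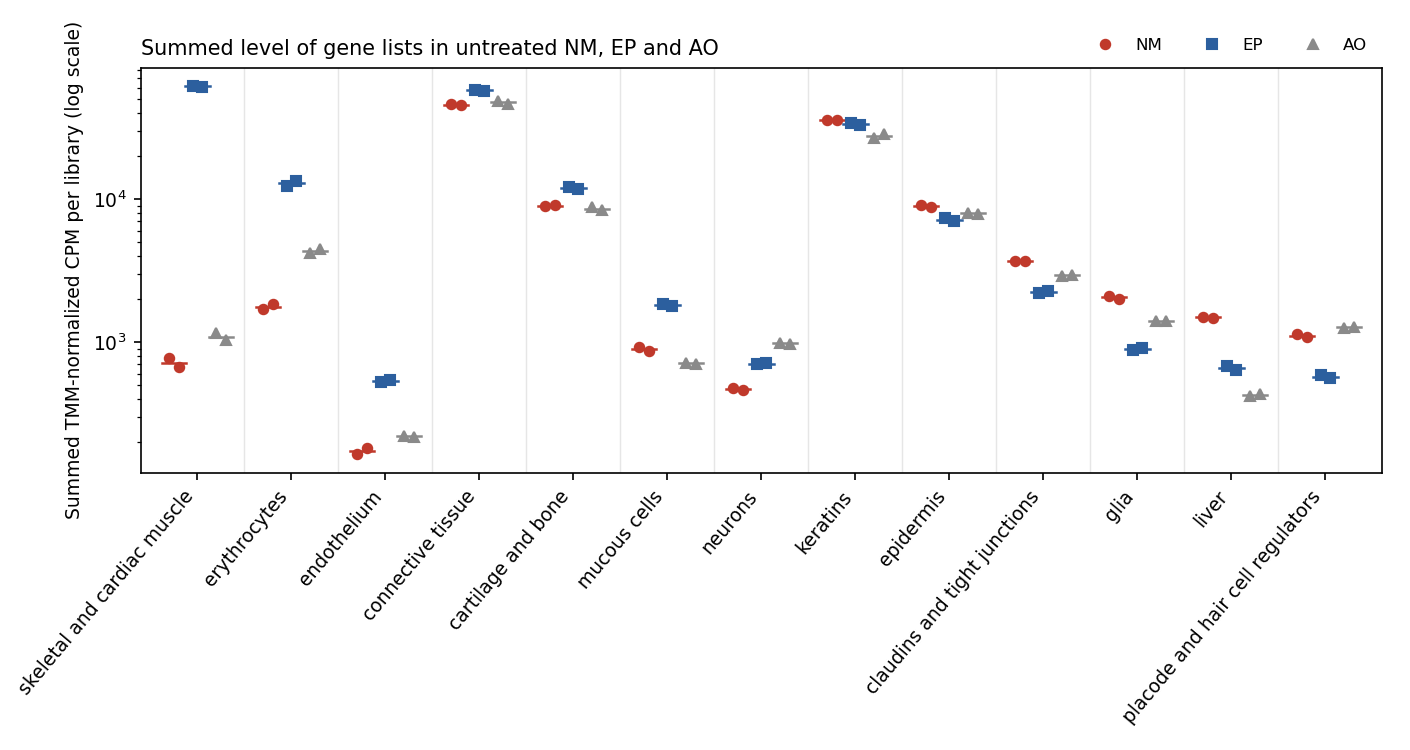
Summed CPM (log axis) of 13 gene lists in single libraries of NM, EP and AO. Muscle genes sum to 771 and 671 CPM in NM, against 62046 and 61185 CPM in EP, while liver genes sum to 1513 and 1481 CPM in NM, against 685 and 645 CPM in EP.

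Untreated NM was also set against untreated AO, which shares the NM libraries with the comparison to EP, so the values are given side by side. Between NM and AO, 182 genes were higher in NM (0.828%) and 1142 were lower (5.20%), which is 6.02% in either direction, with a median of all tested genes of -0.13 on the log2 scale. Of the placode and hair cell regulators, 6 of 45 were lower in NM than in AO and 0 were higher (3 at an unadjusted p under 0.05), and those named above were not among the 6. The calls between NM and AO depended on the libraries in the fit, and the 6 became 0 in a fit on only the 4 libraries, 0 in a fit on the 6 untreated libraries, 3 without NM replicate 1 and 4 without NM replicate 2. ATOH1 had 29.1 and 28.4 CPM in NM, against 23.9 and 21.9 CPM in AO (0.33). CPV3 had 1748 and 1801 CPM in NM, against 1554 and 1578 CPM in AO (0.18). ZPLD1 had 405 and 376 CPM in NM, against 351 and 331 CPM in AO (0.20). The 2 organs lay close in these 3 genes, though both libraries of NM were above both of AO in each. Their lists did not lean toward NM. The regulators had a median of -0.30, with 19 members below 0 at an unadjusted p under 0.05 and 3 above. The gel and otolith matrix list had a median of -0.90. Hair bundle genes had a median of -0.61, against -0.13 for all tested genes. Of 69, 6 were lower in NM than in AO and 0 were higher, beside 5.20% and 0.828% of all tested genes. At an unadjusted p under 0.05, 28 hair bundle genes lay below 0 and 2 above. Such unadjusted counts were not made over all tested genes. The 6 lower hair bundle genes became 0 in the fit on only the 4 libraries and 2 in that on the 6 untreated libraries.

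Synapse and cilium genes had more members lower in NM than in AO. OTOF (TRINITY_DN119677_c4_g1) had 71.1 and 61.9 CPM in NM, against 137 and 113 CPM in AO (-0.91, not called). Of the ribbon synapse list, 14 members were lower and 0 higher (median -0.90), and of the motile cilium list 41 were lower and 0 higher (median -1.18). At an unadjusted p under 0.05, 0 and 3 members of these lists lay above 0. Of the 14 synapse and 41 cilium genes, 2 and 0 were lower in the fit on only the 4 libraries, 4 and 3 in that on the 6 untreated libraries, and 8 and 18 without NM replicate 2. The cilium count was 23 without NM replicate 1, AO replicate 1 or AO replicate 2. RSPH1, TEKT2, OTOG and OTOL1 also lost their calls in the fit on only the 4 libraries, and TEKT2 in that on the 6. RSPH1 had 3.20 and 3.52 CPM in NM, against 10.95 and 10.1 CPM in AO (-1.63), and TEKT2 had -1.29. OTOG, otogelin of gel matrices, had 5.96 and 5.15 CPM in NM, against 12.3 and 14.0 CPM in AO (-1.24), and 1.09 and 1.08 CPM in EP (2.34, named after its values were seen). OTOL1 was the 1 gene of the gel and otolith matrix list called higher in NM than in AO, with 8.31 and 6.68 CPM in NM, against 1.93 and 2.18 CPM in AO (1.86).

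Neuron genes were lower in NM than in AO in 61 of 99 tested members and higher in 0 (1 at an unadjusted p under 0.05, median -1.75), and lens genes in 16 of 25 (median -4.33). Their summed levels were 479 and 468 CPM for neuron genes in NM, against 991 and 977 CPM in AO, and 30.6 and 29.05 CPM for lens genes in NM, against 687 and 688 CPM in AO. Liver genes went the other way, with 39 of 63 higher and 0 lower (2 at an unadjusted p under 0.05, median 3.40) and sums of 1513 and 1481 CPM in NM, against 419 and 433 CPM in AO. In the fit on only the 4 libraries, 7 neuron and 10 lens genes were lower and 25 liver genes higher, and in that on the 6 untreated libraries 24, 13 and 36. MBP had 334 and 326 CPM in NM, against 152 and 153 CPM in AO (1.11). GSC and LHX6, low in NM against EP, were also lower in NM than in AO, with -2.72 and -1.48. GSC lost this call in the fit on only the 4 libraries. LHX6 lost it there, in the fit on the 6 untreated libraries and with DESeq2's size factors. LHX6 also lost it without any 1 of the NM and AO libraries. BARX1 had 0.995 and 0.982 CPM in NM, against 1.44 and 1.75 CPM in AO and was not called.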

How the data were processed

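RNA of neuromasts (NM), ampullary organs (AO) and epithelium (EP) was sequenced as paired ends from TruSeq libraries. Per the submitters' processing notes, Trimmomatic 0.38 removed adapters and poor bases. A Trinity assembly of the pooled reads served as reference, contigs were named by protein matches, and the authors deposited an RSEM expected count for each gene in each library, without scaling to depth. The RSEM version is not given in the sources used here. RSEM divides a read among contigs that match it equally, so fractions occur and near-identical copies are not independent. The table held 23448 genes, of which 2 had no count and 22237 had a gene name.

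Counts were rounded and analysed with edgeR 4.0.16 under R 4.3.3 by its quasi-likelihood functions, after filterByExpr and TMM scaling, with 1 mean per group over all 14 libraries. The common biological coefficient of variation was 0.121. The SE values are not an output of edgeR but were derived from its F statistic. Each is the size of the log2 fold change fitted without a prior count, divided by the square root of F. The log2 fold changes printed were fitted with a small prior count. Contrasts were untreated NM minus EP and untreated NM minus untreated AO, and genes were called at an FDR (Benjamini-Hochberg) below 0.01 and a log2 fold change past 1. The fit was also run on simulated counts with planted changes. These counts were independent between libraries, so that run cannot test the effect of divided pools or of shared replicate numbers. Ratios of genes with 1 to 3 counts in a group carry exact binomial intervals, and genes with none a bound at 3 counts. Both cover counting error only. Totals of 7975001 to 10067958 counts set the precision. NM, EP and AO replicates differed by 7.62 to 11.5 times counting noise (chi-square per degree of freedom), so none was a duplicate.

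The members and lists were chosen with earlier results of these data known. A list took every gene whose name matched, except 17 whose protein was another gene. Named genes included the 12 with the largest change in each direction, without repeating a gene name. These needed at least 10 CPM in the higher group and both libraries of that group above both of the lower. Also named were the 4 most abundant called and up to 2 uncalled members of each list. The rest were genes stated as named after their values were seen. Not every gene that these rules give is printed.

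Replicate numbers come from the labels. After group means were removed, same-numbered libraries correlated in 21 of 21 pairs of groups (r of 0.125 to 0.232, NM with EP 0.169), so the number was also fitted as a replicate block. What it stands for is not given in the sources used here. Other alternatives were DESeq2 1.42.0 (test and size factors), edgeR's exact test, fits on fewer libraries, scaling without marker genes, other filters, a prior count of 2, an FDR below 0.05 and each library left out.

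Some genes of the lists are not reported here.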

Additional observations from a re-analysis of the deposited data

Results flagged for a closer look

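Several of the genes with the largest difference between NM and EP also differed between NM and AO by the test of that contrast itself. Of the genes higher in NM, the log2 fold change of NM to AO was 6.53 for VTN (TRINITY_DN106850_c0_g1), 5.43 for APOB, 3.87 for ITIH3, 7.30 for APOA1, 7.62 for FGB, 6.93 for FGA, 5.66 for FABP10A, 5.80 for C3, 4.01 for FGG and 5.51 for MID1IP1B. PLG had 7.59, which rests on 1 count in AO and corresponds to a ratio of 250.0 with a counting interval of 44.4 to 9925. All but MID1IP1B are on the liver list. ITIH3 lost its call between NM and AO without any 1 of the 4 NM and AO libraries (FDR of 0.025 to 0.047, edgeR).

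Of the genes lower in NM, ACTN2 had a log2 fold change of NM to AO of -3.18 and ATP2A1 one of -3.50. HHATL had no count in NM, against 0.715 and 0.619 CPM in AO, at least 3.7-fold lower with NM at the floor of 3 counts. All 3 genes were lower in NM and in AO than in EP by level, and NM lay below AO. The calls between NM and AO were lost in the fit on only the 4 libraries for all 3. ACTN2 and HHATL also lost theirs in the fit on the 6 untreated libraries. ACTN2 lost its call without NM replicate 1, NM replicate 2 or AO replicate 2 as well. HHATL lost its own without NM replicate 1, NM replicate 2 or AO replicate 1. The part of muscle and liver RNA in these values was not tested.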

How the results depend on the processing

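Between NM and EP, 892 genes were higher and 2019 lower. The fit on only the 4 libraries called 559 and 1307, and leaving out 1 library gave 737 to 769 higher and 1633 to 1673 lower. Other settings stayed within 1.5 times: 866 and 2067 with DESeq2's size factors, 931 and 2181 in the exact test, 750 and 1821 in DESeq2, of which 730 and 1704 were shared, and 1095 and 2477 at an FDR below 0.05. With the replicate block, 935 were higher and 2146 lower, NID2 lost its call (log2 fold change -0.996) and ACTC1 gained one (-4.62). The block changed no other call of a named gene, and it moved the list counts given beside their lists (Notch, pigment cells, placode regulators and glia). NM against AO depended far more on the libraries in the fit. Its 182 higher and 1142 lower genes became 58 and 64 on only the 4 libraries, 251 lower on the 6 untreated libraries (added once the data had been seen), and 225 and 1334 with the replicate block. Leaving out 1 library gave 119 (without AO replicate 1) to 143 higher and 588 (without NM replicate 2) to 742 (without AO replicate 2) lower, with 631 without NM replicate 1 and 709 without AO replicate 1. The cause was not tested. Among values of named genes, 3513 kept their side of the threshold, 79 lost it, 20 gained it and 0 reversed. List values were less stable, with 1780 the same and 366 moved. Of the overall counts of called genes, 36 were the same and 10 moved. A count moved when it changed by more than 1.5 times, or to or from 0. A median moved when it changed by more than the SD over pairs of an NM and an EP library. Genes with few counts in 1 group are limited by depth to the ratios and bounds printed.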

Other observations

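The tissue lists also varied among the NM pools taken after neomycin. These pools are in no contrast above, but they are part of the fit of all 14 libraries that gave the FDR values. Muscle genes summed to 19337 and 18952 CPM in NM at 12 hpt and to 1262 and 1234 CPM at 24 hpt, and those of untreated NM were 771 and 671 CPM. Liver genes summed to 1378 and 1261 CPM at 12 hpt and to 301 and 295 CPM at 24 hpt. FABP10A had 192 and 120 CPM at 12 hpt, and 0.5001 and 0 CPM at 24 hpt. NUMB (TRINITY_DN119806_c5_g1) had 38.3 and 42.6 CPM at 12 hpt and 1.96 and 2.27 CPM in untreated NM. CPV3 (TRINITY_DN97159_c2_g2) had 874 and 905 CPM at 12 hpt, and 1020 and 1047 CPM at 24 hpt.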
